A study of Rattus norvegicus with 6 samples.

Results

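Steroid hormone synthesis in the newborn rat ovary was followed through 8 genes: Star and Tspo, which act in bringing cholesterol into mitochondria, the steroid-forming cytochrome P450 genes Cyp11a1, Cyp17a1 and Cyp19a1, the steroid-converting dehydrogenase genes Hsd17b2 and Akr1c14, and Nr5a1, a transcription factor of steroid-forming cells. They were taken by name, 8 of the 4737 named genes on the array. Every probe set whose array annotation gave exactly 1 symbol equal to one of these names was used, which gave 10 of the 8799 probe sets on the Affymetrix Rat Genome U34 array (Set A). Star and Akr1c14 each had a pair of probe sets and the other 6 genes had 1 each. Expression was measured in whole ovaries on 6 arrays, 2 for each of 3 groups. The first group held ovaries removed at birth and kept for 7 days on floating filters (cultured), in DMEM-Ham's F-12 medium with albumin, Albumax, transferrin, insulin, ascorbic acid and antibiotics, a list that names neither serum nor a gonadotropin. The others held ovaries collected on postnatal day 4 (P4) and ovaries collected on the day of birth, day 0 (P0). Each array carried RNA of a pool of about 20 ovaries, and per the labels the pools of a group were independent. No strain is stated in the labels. The design text of the series names progesterone, itself a product of this pathway, as a treatment of cultured ovaries, but no sample label gives a treatment, so both cultured arrays were taken as replicates of 1 condition, as labelled.

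Steroid synthesis begins when cholesterol reaches the inner mitochondrial membrane, a step that Star drives, and Cyp11a1 then cleaves its side chain to form pregnenolone. Cyp17a1 makes androgens from the steroids that follow, and Cyp19a1, aromatase, turns androgens into estrogens. In the mature ovary these steps are divided between theca cells, which express Cyp17a1, and granulosa cells, which express Cyp19a1 under the control of follicle-stimulating hormone. Hsd17b2 oxidizes estradiol and testosterone to less active forms, and rat Akr1c14 reduces dihydrotestosterone and dihydroprogesterone at the 3-position. Nr5a1, also called steroidogenic factor 1, binds the promoters of many of these genes.

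All values are probe set intensities on a linear scale, which the authors had already brought to one level per array (trimmed mean 125.2 on each of the 6). An intensity of 20, the highest reading on any array of 23 control probe sets for which no transcript was added, served as the background level. Between 62.3% and 66.4% of probe sets exceeded it per array. P0 replicate 1 read 1324.2 on the 3′ GAPDH control probe set, against 2162.3 to 2775.1 on the other 5 arrays, and results of the 8 genes that change without it are given. Actb, a housekeeping gene, had log2 changes of 0.13 at P4 and -0.29 in culture, both against P0, and -0.42 in culture against P4, and passed in none. The ovarian identity of the tissue was borne by Zp2, a coat protein gene of the oocyte, and Inha, a granulosa gene, whose lowest readings on any array were 282.4 and 238.0. With 2 arrays a group, the number of arrays limits the precision of every value below. A p-value sets a difference against the spread between these pools only. In the main fit that spread was estimated with 3 residual degrees of freedom and 6.45 borrowed from all probe sets.

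The 8 genes fell into several patterns. At P4, Star (on 1 of its 2 probe sets), Cyp19a1 and Akr1c14 were higher than at P0, and Cyp17a1 also had higher readings. In cultured ovaries the Star readings overlapped those at P4, the Akr1c14 readings lay between those at P4 and P0, and Cyp17a1 and Cyp19a1 read under the background level. Tspo and Hsd17b2 were higher in cultured than in P4 ovaries. Nr5a1 had its lowest readings in culture, and Cyp11a1 did not exceed the background level on any array. In whole ovaries, fewer cells of a type and less RNA per cell cannot be told apart.

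**Figure D1:**
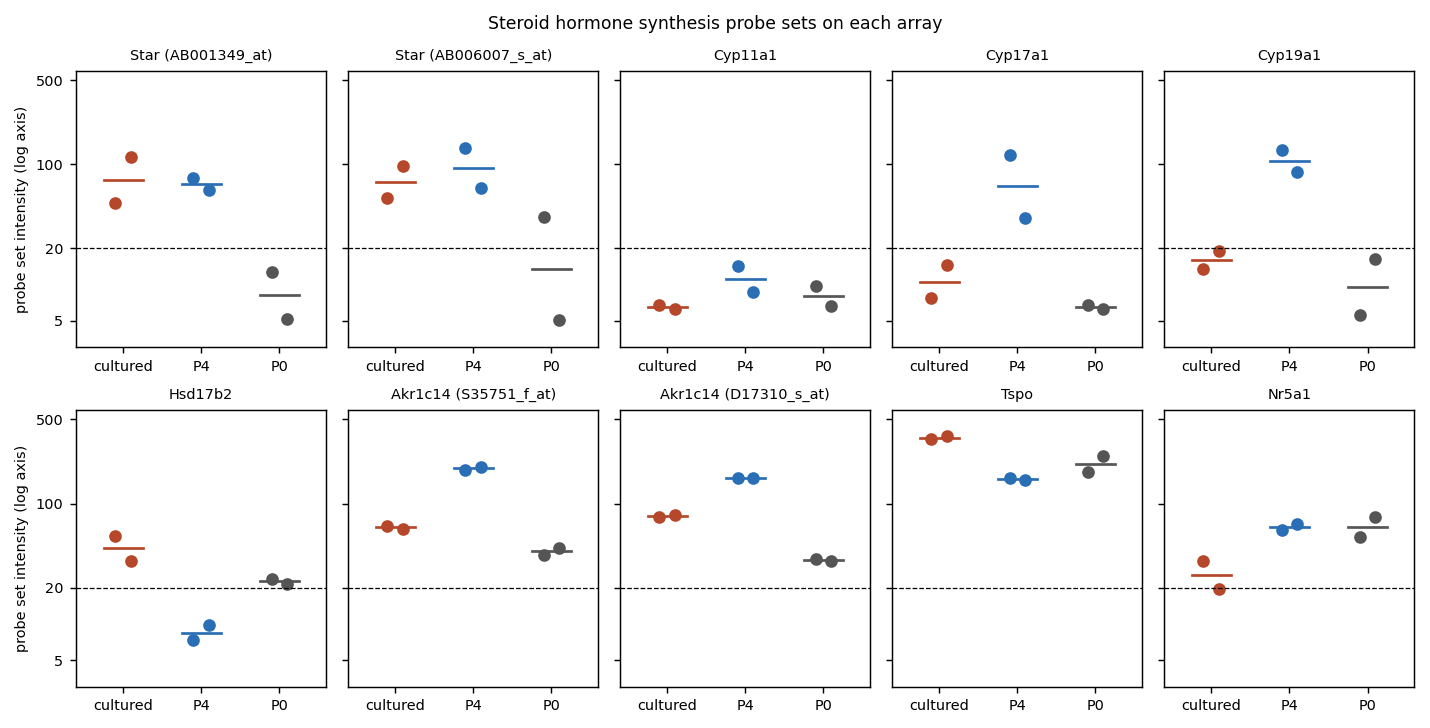
Intensity of each of the 10 probe sets on each array (vertical axis, log scale) in cultured, P4 and P0 ovaries; points are arrays, replicate 1 left of replicate 2, short bars are geometric means of 2 arrays, and the dashed line is the background level of 20. Star was above the line in cultured and P4 ovaries, Cyp17a1 and Cyp19a1 were above it only at P4, and Cyp11a1 was under it on all 6 arrays.

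Star was represented by the probe sets AB001349_at and AB006007_s_at. The first read 47.8 and 114.0 in cultured ovaries and 76.7 and 61.0 at P4, against 12.7 and 5.2 at P0. Both P0 arrays were under the background level and all 4 others were above it, with no overlap. The second read 52.5 and 96.2 in cultured ovaries and 137.4 and 63.9 at P4, against 36.1 and 5.1 at P0, so that 1 P0 array was above background and the groups again did not overlap with P0. Because P0 arrays lay under the background level, the fold is a lower bound, with each such array set to that level. AB001349_at was at least 3.42-fold higher at P4 than at P0 (log2 change 2.23, SE 0.39, limma adjusted p = 0.0347) and at least 3.69-fold higher in culture than at P0 (log2 change 2.34, SE 0.39, limma adjusted p = 0.0102). These and all later log2 changes are differences of log2(intensity + 7.7). AB006007_s_at had means at least 3.49-fold (P4) and at least 2.64-fold (culture) those of P0 and passed in neither comparison (log2 changes 2.11 and 1.74, SE 0.55 for each, limma adjusted p = 0.122 and 0.109). Fits of P4 against P0 with the chip batch that these arrays share as a block, here and later, left out the cultured arrays. They had 1 residual degree of freedom, against 8.71 borrowed from all probe sets, so they differ from the main fit in more than the block. In such a fit AB006007_s_at passed at P4 (limma adjusted p = 0.0018), and within the batches its log2 changes were 1.73 and 2.48. Its P0 arrays differed from each other by 7.08-fold, the widest replicate pair of the 10 probe sets, and without P0 replicate 1 it passed at P4 and in culture (limma adjusted p = 0.0331 and 0.0222). In this and later fits without 1 array, the remaining array of that group was assumed to vary like the other groups.

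The call of AB001349_at at P4 ended when P0 replicate 2 or either of the P4 arrays was left out (limma adjusted p = 0.183 for P0 replicate 2, and 0.154 and 0.062 for P4 replicates 1 and 2), with no filter on dim probe sets, with no variance trend and with a pseudocount 4 times as large (limma adjusted p = 0.0834, 0.0606 and 0.0633). It held with the chip batch as a block (limma adjusted p = 0.00153). The call in culture ended without P0 replicate 2 or cultured replicate 2 (limma adjusted p = 0.0555 and 0.0781). Between cultured and P4 ovaries the log2 change of AB001349_at was 0.11, with a 95% interval from -0.76 to 0.98 (limma adjusted p = 0.943), and that of AB006007_s_at was -0.37, from -1.6 to 0.87 (limma adjusted p = 0.869).

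Tspo, the translocator protein of the outer mitochondrial membrane, which macrophages and many other cells express besides steroid-forming ones, took another course. It read 345.9 and 360.9 in cultured ovaries, against 162.2 and 158.2 at P4 and 182.4 and 247.3 at P0. The cultured arrays were above all others, and both P4 arrays were under both P0 arrays. Tspo was 2.21-fold higher in cultured than in P4 ovaries (log2 change 1.10, SE 0.22, limma adjusted p = 0.0258). Against P0 it did not pass in culture (log2 change 0.71, interval 0.23 to 1.2, limma adjusted p = 0.0975) or at P4 (log2 change -0.39, interval -0.88 to 0.095, limma adjusted p = 0.506). Leaving out either array of the cultured or of the P4 group ended the one call (limma adjusted p between 0.109 and 0.183), as did fitting no variance trend (limma adjusted p = 0.0512).

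Cyp11a1, the side-chain cleavage enzyme that makes the first steroid of the pathway, read 6.7 and 6.3 in cultured ovaries, 14.3 and 8.7 at P4, and 9.7 and 6.6 at P0. All 6 arrays were under the background level, so no fold is given. Its mean log2 value stood at percentile 20.5 of all probe sets, under the 30th percentile that a probe set had to reach to be tested. With no such filter its log2 changes were 0.27 at P4 and -0.15 in culture, both against P0, and -0.42 in culture against P4, and it passed in none (limma adjusted p = 0.796, 0.845 and 0.606). Cyp11a1 was thus not above the background level of 20 in any group. Its 14.3 on P4 replicate 1 stood beside 14.2, the highest reading of those control probe sets on that array.

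Cyp17a1, the enzyme that commits steroids to androgens, read 7.7 and 14.5 in cultured ovaries, 119.4 and 35.9 at P4, and 6.8 and 6.3 at P0. Both P4 arrays exceeded the background level and none of the other 4 did. The P4 arrays differed from each other by 3.33-fold. The mean of Cyp17a1 at P4 was at least 3.27-fold that at P0, and the difference did not pass (log2 change 2.39, SE 0.47, limma adjusted p = 0.0523). This rested on the pseudocount: with the smaller one tried Cyp17a1 passed (limma adjusted p = 0.0489), and with one 4 times as large it did not (limma adjusted p = 0.0806). With the chip batch as a block it passed (limma adjusted p = 0.00522), with log2 changes of 3.13 in one batch and 1.64 in the other. Without P4 replicate 2 it passed (limma adjusted p = 0.0162), with the brighter P4 array alone and the spread taken from the other groups, and without P4 replicate 1 its mean fell under the filter. The mean in cultured ovaries was at least 3.27-fold under that at P4, a difference that did not pass (log2 change -2.01, SE 0.47, limma adjusted p = 0.0608) except with that brighter P4 array alone (limma adjusted p = 0.00904). Between cultured ovaries and P0, where all 4 arrays were under the background level, the log2 change was 0.38 (interval -0.69 to 1.44, limma adjusted p = 0.712).

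Cyp19a1, aromatase, had 13.4 and 18.9 in cultured ovaries, against 132.6 and 85.7 at P4 and 5.6 and 16.2 at P0. The P4 arrays stood well above the other 4, none of which reached the background level, and the cultured and P0 readings overlapped. Aromatase was at least 5.33-fold higher at P4 than at P0 (log2 change 2.68, SE 0.36, limma adjusted p = 0.00995), and cultured ovaries were lower than P4 ovaries by the same bound (log2 change -2.27, SE 0.36, limma adjusted p = 0.008). Without P4 replicate 1 the first call ended (limma adjusted p = 0.094). The second ended without P4 replicate 1, cultured replicate 1 or cultured replicate 2 (limma adjusted p = 0.0824, 0.0936 and 0.0559). Cultured and P0 ovaries were not distinguished (log2 change 0.41, interval -0.39 to 1.21, limma adjusted p = 0.57). Beside this pattern, the marker list for granulosa cells, which normally make aromatase, summed to 908.2 and 1016.0 in cultured ovaries, 3480.1 and 2444.4 at P4, and 1584.1 and 1574.6 at P0 over the 9 of its 10 genes that were measured. That list includes Cyp19a1 itself. Inha, Fst and Amh make up most of its sum, and they moved differently: Inha and Amh (138.6 and 137.1 in cultured ovaries, 585.7 and 389.4 at P4, 192.0 and 214.2 at P0) were lower in culture than at P4, and Fst was lower in culture than at P0. At P4 against P0 Amh (log2 change 1.21) and Fst (log2 change -0.91) did not pass (limma adjusted p = 0.0506 and 0.101), and with the chip batch as a block they did (limma adjusted p = 0.0102 and 0.011). Of its 7 tested genes 3 were lower in culture than at P4, Cyp19a1 among them. Its part in the Cyp19a1 result was not tested.

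Akr1c14 reduces active androgen and progesterone derivatives in the rat, and its replicates lay closest together of the 8 genes. S35751_f_at read 65.5 and 61.5 in cultured ovaries, against 190.6 and 201.8 at P4 and 37.5 and 42.6 at P0. D17310_s_at read 76.6 and 80.7 in cultured ovaries, against 163.2 and 163.4 at P4 and 34.8 and 33.4 at P0. On both, every P4 array was above every cultured array, and every cultured array above every P0 array. The suffixes mark designs that can also match similar transcripts, and the gene belongs to a family of near relatives, so related genes may contribute to these values. Star AB006007_s_at and the only probe sets of Cyp11a1 and Cyp17a1 also end in _s_at, so similar transcripts may contribute there too.

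At P4 both Akr1c14 probe sets were higher than at P0, by 4.91-fold (log2 change 2.10, SE 0.21) and 4.79-fold (log2 change 2.03, SE 0.21), with a limma adjusted p = 0.00568 for each. These calls held without each of the 6 arrays in turn (highest limma adjusted p = 0.0357) and with no filter on dim probe sets (limma adjusted p = 0.0144 for each). Cultured ovaries were lower than P4 ovaries, by 3.09-fold on S35751_f_at (log2 change -1.52, SE 0.21, limma adjusted p = 0.00465) and 2.08-fold on D17310_s_at (log2 change -0.99, SE 0.21, limma adjusted p = 0.0385). The first held without each array in turn and the second ended without any array of either group (limma adjusted p between 0.15 and 0.189) or with no filter (limma adjusted p = 0.0746). Against P0, the probe sets differed. D17310_s_at was 2.31-fold higher in culture (log2 change 1.05, SE 0.21, limma adjusted p = 0.022), a call that ended without any array of either group (limma adjusted p between 0.0723 and 0.116). S35751_f_at was 1.59-fold higher and did not pass (log2 change 0.58, interval 0.098 to 1.06, limma adjusted p = 0.158).

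Hsd17b2, which inactivates estradiol and testosterone, had its lowest readings at P4, where aromatase had its highest. It read 53.3 and 33.6 in cultured ovaries, against 7.3 and 9.8 at P4 and 23.8 and 21.4 at P0. The groups did not overlap in any pairing, and the P4 arrays alone were under the background level. Cultured ovaries were higher than P4 ovaries by at least 2.12-fold (log2 change 1.63, SE 0.31, limma adjusted p = 0.0232), a call that ended without P4 replicate 1, P4 replicate 2 or cultured replicate 1 (limma adjusted p = 0.131, 0.0644 and 0.155). Neither P4 (log2 change -0.90, interval -1.6 to -0.2, limma adjusted p = 0.236) nor culture (log2 change 0.73, interval 0.027 to 1.43, limma adjusted p = 0.225) passed against P0.

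Nr5a1 read 33.3 and 19.6 in cultured ovaries, against 59.9 and 67.6 at P4 and 52.7 and 77.1 at P0. The P4 and P0 arrays overlapped, and both cultured arrays were under all 4 of them, with cultured replicate 2 just under the background level. P4 did not differ detectably from P0, with a log2 change of -0.0045 and a 95% interval from -0.65 to 0.64 (limma adjusted p = 0.998). Cultured ovaries were lower in their means by at least 2.47-fold against P4 and by at least 2.47-fold against P0, without passing (log2 changes -1.09 and -1.10, SE 0.29 for each, limma adjusted p = 0.0932 and 0.0622). In none of the 6 fits with 1 array left out did either pass. Star AB001349_at, which passed in culture against P0, and Nr5a1 thus had mean changes of opposite sign there.

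Promoter sequences matched by symbol for 3 of the 8 genes, Akr1c14, Cyp11a1 and Nr5a1, and are shown because these are the gene whose P4 calls held without each array, the gene not above background and the regulator of the set. Star, Cyp17a1, Cyp19a1, Hsd17b2 and Tspo had no entry. They come from RefSeq on the GRCr8 build, 250 bases before to 50 after the start of each gene, read along the gene's strand: Akr1c14 at chr17:71083135-71083434, minus strand, Cyp11a1 at chr8:67318415-67318714, plus strand, and Nr5a1 at chr3:42895997-42896296, minus strand. Capitals mark matches to the searched motifs.
Akr1c14: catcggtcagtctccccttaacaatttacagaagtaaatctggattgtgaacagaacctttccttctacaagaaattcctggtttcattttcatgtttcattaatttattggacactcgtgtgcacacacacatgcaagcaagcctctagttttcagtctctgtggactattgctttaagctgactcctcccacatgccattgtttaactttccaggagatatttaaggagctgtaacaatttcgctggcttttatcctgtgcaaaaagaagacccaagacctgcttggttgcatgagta
Cyp11a1: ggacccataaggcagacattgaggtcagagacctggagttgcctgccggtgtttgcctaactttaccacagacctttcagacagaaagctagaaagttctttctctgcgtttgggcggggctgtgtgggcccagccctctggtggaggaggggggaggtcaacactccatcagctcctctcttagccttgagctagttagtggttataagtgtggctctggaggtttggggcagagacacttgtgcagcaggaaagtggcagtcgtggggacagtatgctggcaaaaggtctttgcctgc
Nr5a1: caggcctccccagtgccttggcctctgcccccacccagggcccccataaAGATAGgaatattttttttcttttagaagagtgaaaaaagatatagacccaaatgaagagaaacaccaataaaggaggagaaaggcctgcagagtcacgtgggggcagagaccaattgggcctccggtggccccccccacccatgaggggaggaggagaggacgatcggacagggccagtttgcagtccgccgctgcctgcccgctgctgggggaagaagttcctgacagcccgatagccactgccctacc
Motifs were searched on both strands. The letters AAGGTCA and AAGGCCA, searched as Nr5a1 binding cores, occurred in none of the 3 windows, against 10.5% of all 33469 promoters of the same length. Shorter forms such as AGGTCA, which the Cyp11a1 window holds, were not searched. Neither the cAMP response element TGACGTCA (1.83% of promoters), nor its core TGACG (21.2%, which the full element contains), nor the TATA box letters TATAAA (14.2%) occurred in them. Of the GATA motifs AGATAA and AGATAG as well as TGATAA and TGATAG, held by 30.3% of promoters, the Nr5a1 window had AGATAG on the gene's strand, starting at position -201 from the gene's start. AGATAG alone occurs in 9.15% of promoters. These are matches of letters in a short window and not binding sites.

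Counted together, 9 of the 10 probe sets, for 7 of the 8 genes, reached the intensity needed for testing. At P4 against P0, 4 of the 9 passed, all 4 higher, for Star, Cyp19a1 and Akr1c14, against 1.08% of all 6118 tested probe sets (0.85% higher). Without P0 replicate 1 the count was 5. With the chip batch as a block 6 passed, all higher, against 5.13% of all (3.17% higher). In culture against P0, 2 passed, both higher, for Star and Akr1c14, against 5.43% of all (3.48% higher and 1.95% lower). Between culture and P4, 5 passed, with Tspo and Hsd17b2 higher and Cyp19a1 and both Akr1c14 probe sets lower in culture (2.78% of all, 2.16% higher and 0.621% lower). At P4 and P0 the arrays did not overlap for 8 of the 9, 6 higher and 2 lower at P4, against 44.2% of all (18.6% higher and 25.7% lower). In culture and at P0 they did not overlap for 8, 7 higher and 1 lower, against 50.4% of all (21.3% higher and 29.0% lower). In culture and at P4 they did not overlap for 7, 2 higher and 5 lower, against 43.6% of all (19.1% higher and 24.5% lower). Cyp17a1, Cyp19a1 and Hsd17b2 would not have reached the filter without the group in which they were highest, so the counts over tested probe sets favour a difference for them. With no filter, over 8740 probe sets, Cyp19a1 still passed at P4 against P0 and in culture against P4 (limma adjusted p = 0.0381 and 0.0247), as did Hsd17b2 in culture against P4 (limma adjusted p = 0.0427). The comparisons with P0 share the P0 arrays, and those with culture share the cultured arrays. Culture ended 7 days after birth, P4 ovaries were collected on day 4, and no uncultured ovaries of day 7 were measured. Culture and time since birth therefore cannot be told apart in these comparisons. Each cultured array also came from a chip batch of its own, so chip batch and culture cannot be told apart. With the batch as a random block over all 6 arrays, 2 passed between culture and P0 and 5 between culture and P4. Of all 6118 tested probe sets, 344 and 180 passed in these fits.

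**Figure D2:**
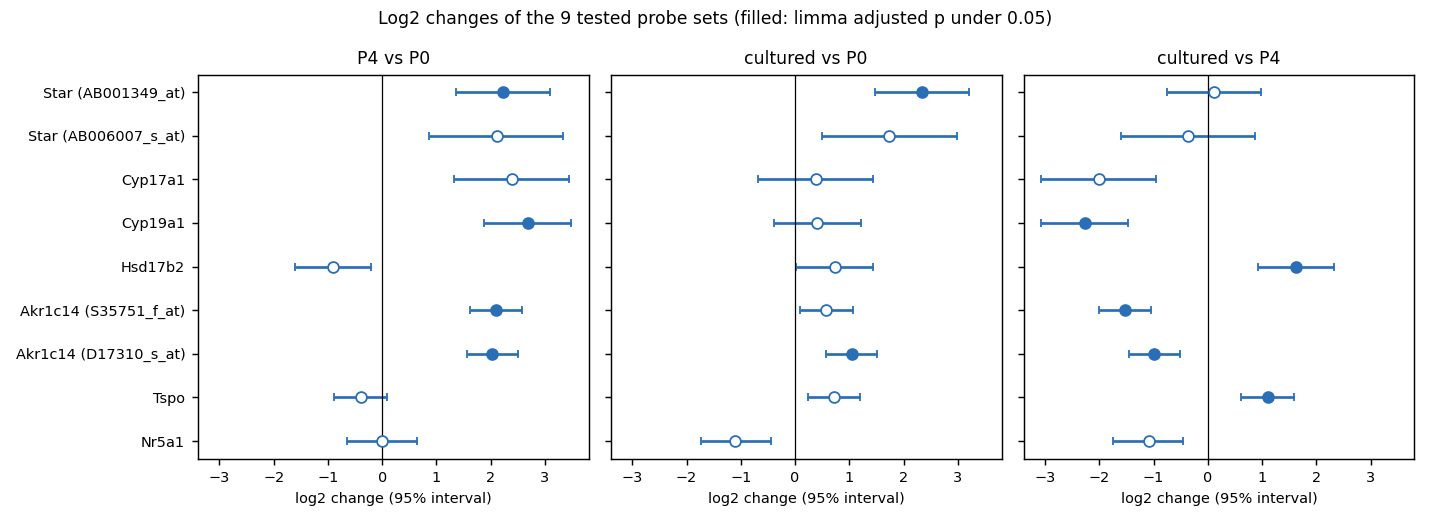
Log2 change of each of the 9 tested probe sets (points) with its 95% interval (bars) for P4 against P0, cultured against P0 and cultured against P4; filled points had a limma adjusted p under 0.05. Cyp17a1, Cyp19a1 and Akr1c14 lie right of 0 at P4 and left of 0 in culture against P4, while Star lies right of 0 in both comparisons with P0.

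Among the genes themselves, patterns were set side by side by the distance between log2 values centred on each probe set's own mean over the 6 arrays, where a distance of 0 means the same course. The Akr1c14 probe sets lay 0.61 apart and the Star probe sets 1.16. Between genes, Hsd17b2 and Tspo were nearest (0.855), followed by Cyp17a1 and Cyp19a1 (0.992) and by Cyp19a1 and Akr1c14 S35751_f_at (1.08). Cyp19a1 and Hsd17b2 were the farthest apart of all pairs (4.47). Cyp17a1 and Cyp19a1 were above the background level, and reached the filter, only through P4, and Hsd17b2 was under that level at P4. Distances of these genes, here and below, thus rest partly on readings under the background level, as do those of Star at P0. Star lay nearer to Akr1c14 D17310_s_at (1.66 for AB001349_at) than to Cyp19a1 (2.81).

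**Figure D3:**
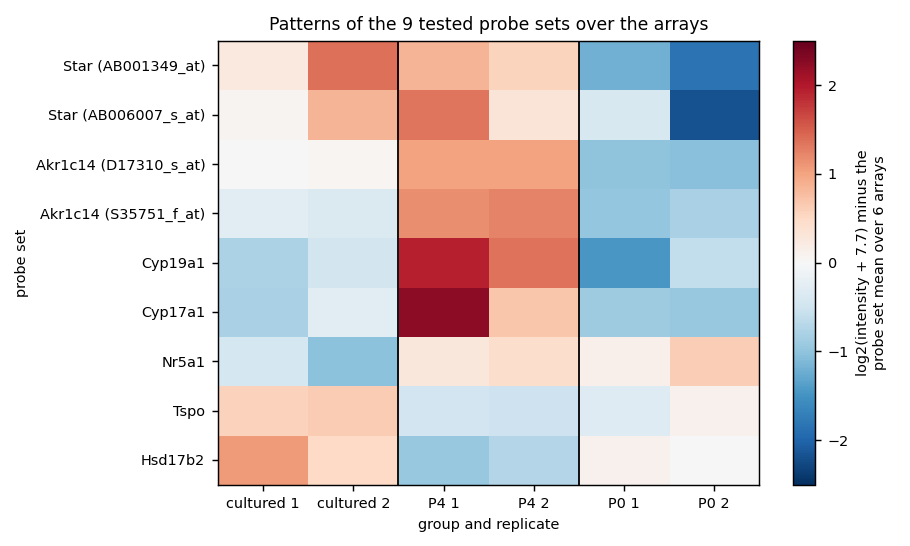
Log2(intensity + 7.7) of the 9 tested probe sets on each array minus the probe set's mean over the 6 arrays (colour, red above and blue below the mean), with arrays in columns. Cyp17a1 and Cyp19a1 are red at P4 alone, Star is red or pale in culture and at P4, and Tspo and Hsd17b2 are red in culture.

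The same distance was used to find the 3 nearest probe sets of other named genes for each probe set that passed a test, over 6 arrays that share their groups and batches. Cyp19a1 lay nearest to both probe sets of Inha, the inhibin alpha subunit made by granulosa cells (0.359 and 0.978, with a median of 3.08 over all candidates). Inha on its nearer probe set read 360.7 and 462.3 in cultured ovaries, 1970.3 and 1349.1 at P4, and 238.0 and 394.7 at P0. The third was Cpa1, a pancreatic carboxypeptidase gene (1.37). Inha was also first for Akr1c14 S35751_f_at (0.641), with the potassium channel gene Kcnh1 (0.693) after it. For D17310_s_at, Kcnh1 (0.489), the zona pellucida gene Zp1 (0.546) and Abat, which breaks down the transmitter GABA (0.655), were nearest, with a median of 2.18. Star AB001349_at lay nearest to Dnmt1, the maintenance DNA methyltransferase (0.558), then to Spire1, an actin nucleation factor (0.747), and Pld1, a phospholipase (0.755), with a median of 2.93. Hsd17b2 had the major histocompatibility class II genes RT1-Ba (0.325) and RT1-DMb (0.438) and the surface antigen gene Thy1 (0.452) as its nearest, with a median of 1.85. Tspo had Vegfa, a vascular growth factor (0.331), Dpyd, a pyrimidine-degrading enzyme (0.333), and the serine protease gene Prss8 (0.361), with a median of 1.37.

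The other genes of the pathway were read from 4 lists. Of 114 listed genes 74 had a probe set with 1 symbol and 68 were tested, each by its brightest probe set. At P4 none passed against P0 with limma, against 1.08% of all tested probe sets. With an unadjusted p under 0.05 there were 11 of the 68, against 13.0% of all, and with the chip batch as a block 6 passed, against 5.13% of all. Their median log2 change was -0.057, against -0.053 for all. In culture against P0, 1 was higher and 2 were lower (4.41%, against 5.43% of all), with a median of -0.021, against -0.08 for all. Between culture and P4 only Gata6 passed, lower in culture (1.47%, against 2.78% of all), with a median of 0.012, against -0.042 for all.

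Among 21 tested enzymes that form or convert other steroids, none passed in any comparison with limma, and 5 had an unadjusted p under 0.05 at P4 against P0, 2 in culture against P0 and 2 in culture against P4, where the shares of all tested probe sets were 13.0%, 20.8% and 14.0%. At P4 against P0, 1 enzyme passed without P0 replicate 1, 1 without P4 replicate 2, and 2 with the chip batch as a block. Hsd17b1, which forms estradiol and is a granulosa enzyme in the rat, read 16.6 and 26.5 in cultured ovaries, 130.2 and 21.2 at P4, and 23.9 and 11.2 at P0, so that 1 P4 array stood alone (log2 change 1.37 at P4 against P0, limma adjusted p = 0.39). The sulfotransferase Sult1a1 read 98.4 and 139.6 at P4, against 217.0 and 399.4 at P0 (log2 change -1.27, limma adjusted p = 0.101, or 0.00488 with the block). Cyp1b1, an estrogen hydroxylase, read 244.5 and 342.5 at P4, against 455.0 and 496.6 at P0 (log2 change -0.70, limma adjusted p = 0.308, or 0.0488 with the block).

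Of 5 tested electron donors of the steroid P450 enzymes, Cyb5a passed. Cyb5a encodes cytochrome b5, which helps Cyp17a1 in its androgen-forming step, and it read 374.9 and 337.0 in cultured ovaries, 316.8 and 302.8 at P4, and 188.4 and 174.4 at P0. All 4 later arrays were above both P0 arrays. It was 1.96-fold higher in culture than at P0 (log2 change 0.94, SE 0.19, limma adjusted p = 0.0239), and at P4 it passed only with the block (log2 change 0.75, limma adjusted p = 0.121, falling to 0.0369 with it). The culture call ended without any array of either group (limma adjusted p between 0.0691 and 0.148). Its other probe sets had log2 changes of 0.39 and -0.43 in culture and did not pass. Fdx1, the ferredoxin that feeds Cyp11a1, read 167.5 and 178.7 in cultured ovaries, 281.7 and 173.8 at P4, and 176.7 and 135.2 at P0, without passing.

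In the 14 tested genes of cholesterol supply and mitochondrial import, Fabp6 alone passed, lower in culture than at P0. Fabp6, a bile acid binding protein best known from the intestine, read 761.9 and 843.7 in cultured ovaries, against 1414.7 and 1423.8 at P0 (log2 change -0.82, SE 0.16, limma adjusted p = 0.0191). That call ended without any array of either group (limma adjusted p between 0.0677 and 0.139), and its other probe set read under the background level on all 6 arrays. Scarb1, the receptor that takes cholesterol from high-density lipoprotein, read 191.4 and 137.5 in cultured ovaries, 257.0 and 200.5 at P4, and 121.5 and 207.9 at P0, with overlap between P0 and both other groups. Dbi, whose product binds Tspo, read 546.8 and 472.5 in cultured ovaries, 478.6 and 315.4 at P4, and 336.6 and 262.5 at P0 (log2 change 0.76 in culture against P0, limma adjusted p = 0.113). Ppif, a mitochondrial cyclophilin gene, read 588.0 and 679.0 at P4, against 385.8 and 394.0 at P0 (log2 change 0.69, limma adjusted p = 0.132, or 0.0431 with the block).

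Among 28 tested signalling genes and transcription factors, Gata6 passed, lower in culture. Gata6, a zinc finger factor that acts with Nr5a1 on steroid gene promoters, read 173.9 and 165.2 in cultured ovaries, 378.1 and 321.4 at P4, and 436.3 and 402.9 at P0. Both cultured arrays were under all others, with a log2 change of -1.27 against P0 (SE 0.20, limma adjusted p = 0.00734) and -1.01 against P4 (SE 0.20, limma adjusted p = 0.0258). The call against P0 ended without cultured replicate 1 or cultured replicate 2 (limma adjusted p = 0.0561 and 0.0774), and that against P4 without any array of either group (limma adjusted p between 0.0615 and 0.178). The related Gata4 read 247.5 and 143.6 in cultured ovaries, 350.6 and 484.3 at P4, and 295.4 and 462.9 at P0, and did not pass (limma adjusted p = 0.123 against P4 and 0.122 against P0). Nr5a2, the near relative of Nr5a1 expressed in granulosa cells, read 4.3 and 25.6 in cultured ovaries, 58.6 and 33.9 at P4, and 5.8 and 5.7 at P0 (log2 change 1.97 at P4 against P0, limma adjusted p = 0.101, or 0.00696 with the block). Prkar2b, a regulatory subunit of protein kinase A, read 96.9 and 49.7 at P4, against 18.4 and 23.9 at P0 (log2 change 1.43, limma adjusted p = 0.129, or 0.0246 with the block). The gonadotropin receptor genes Lhcgr and Fshr passed in no comparison, with Fshr at 39.1 and 53.8 in cultured ovaries, 77.8 and 65.8 at P4, and 58.8 and 51.8 at P0.

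**Figure D4:**
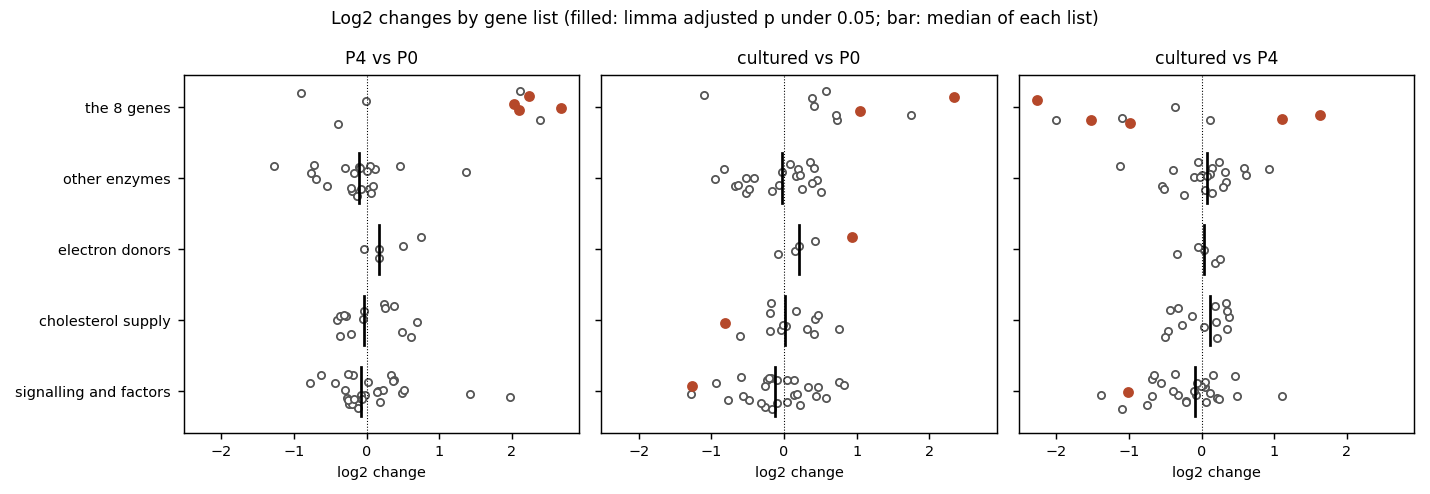
Log2 changes of the 9 tested probe sets of the 8 genes (top row) and of 4 lists of other pathway genes, 1 probe set per gene, for P4 against P0, cultured against P0 and cultured against P4; filled points had a limma adjusted p under 0.05 and black bars are list medians. No filled point is seen outside the top row at P4 against P0, and 3 are seen in culture against P0.

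Markers of other cells were read for the same arrays. Of 7 adrenal cortex markers only Cyp11b2 and Cyp21a1 were measured. Cyp11b2 was under the background level on all arrays, and Cyp21a1 read 9.9 to 14.9 on 5 arrays and 42.8 on P0 replicate 1. That array had the higher P0 readings of Star (12.7 on AB001349_at and 36.1 on AB006007_s_at). Cyp11a1 (9.7) and Cyp17a1 (6.8) were under the background level on it. A part of adrenal tissue in the Star readings was not tested. The theca markers rest on Lhcgr and the members Star, Cyp11a1 and Cyp17a1, 4 of 6 listed genes. The macrophage and leukocyte list, of which 8 of 13 genes were measured, summed to 3462.3 and 1752.8 in cultured ovaries, 328.9 and 407.0 at P4, and 495.4 and 621.6 at P0, and 4 of its 7 tested genes were higher in culture in each comparison. All 8 exceeded the background level on at least 1 array, and most of the cultured sum was the lysozyme gene Lyz2 (2267.0 and 955.7). The probe sets of Ptprc, the leukocyte surface antigen, disagreed. The brightest, M25823_s_at, read 38.6 and 22.8 in cultured ovaries, 29.6 and 41.6 at P4, and 34.2 and 23.2 at P0, and did not pass. K03039mRNA_s_at read 52.3 and 23.8 in cultured ovaries, 1.4 and 3.9 at P4, and 6.2 and 1.6 at P0, and M10072mRNA_s_at read 24.9 and 5.0 in cultured ovaries, 1.1 and 2.2 at P4, and 1.8 and 3.1 at P0. Both were too dim on average to be tested and had their highest readings in culture. Tspo and Hsd17b2, highest in culture, moved with this sum between groups. Between replicates each did so only in part. Hsd17b2 was higher on the same array as the sum in culture and at P4, where it was under the background level, but not at P0. Tspo was higher on the same array as the sum at P0 but not in culture or at P4. Surface epithelium markers, 4 of 8 measured, summed to 1318.7 and 1150.9 in cultured ovaries, 494.2 and 754.0 at P4, and 1352.1 and 1345.3 at P0, again lowest at P4. Krt19, the largest part of this sum, read 691.0 and 480.2 in cultured ovaries, against 1103.3 and 1131.1 at P0, and did not pass. Krt8 and Krt18 went the other way and were higher in culture than at P0 (log2 changes 0.92 and 2.21, limma adjusted p = 0.0323 and 0.00469). The part of these cells in the Tspo and Hsd17b2 results was not tested.

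Markers of oocytes, fat and adrenal medulla also differed between groups. The oocyte list, 4 of 8 genes measured, summed to 2956.5 and 2565.2 in cultured ovaries and 3601.2 and 3918.5 at P4. At P0 it summed to 945.9 and 1058.8, so both later groups lay above P0. In readings the same held for both Star and both Akr1c14 probe sets. It also held for Cyp17a1, whose cultured readings were under the background level. The zona pellucida genes Zp1, Zp2 and Zp3 of the oocyte list were higher at P4 and in culture than at P0. The adipocyte list, 7 of 8 genes measured, summed to 1226.8 and 1771.0 in cultured ovaries and 299.1 and 218.3 at P4, against 149.3 and 127.9 at P0, with Plin1, a lipid droplet coat gene, under the background level on all arrays. Of its 6 tested genes 3 were higher in culture than at P4, as Tspo and Hsd17b2 were, while Cyp19a1 and Akr1c14 were lower. Against P0, 3 were higher in culture, as were Star AB001349_at and Akr1c14 D17310_s_at. The adrenal medulla list, 8 of 9 genes measured, summed to 345.8 and 338.2 in cultured ovaries, 188.2 and 224.3 at P4, and 212.7 and 219.1 at P0, with Dbh, Ddc, Chgb and Slc18a1 under the background level on all arrays. Npy, a neuropeptide gene, read 228.9 and 160.7 in cultured ovaries, 41.9 and 61.8 at P4, and 63.4 and 71.5 at P0, and was the only one of the 4 tested genes of that list to pass, higher in culture in both comparisons. The part of these cells in the results of the 8 genes was not tested.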

How the data were processed

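Per the labels, total RNA of pooled rat ovaries was extracted with Trizol, biotin-labelled and measured on 1 array per pool. The deposited table holds linear probe set intensities, which the authors had scaled, since all arrays have the same trimmed mean. No source used here names the algorithm or software, and no detection calls were used. The values were kept as scaled.

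Before log2, 7.7 (percentile 20 of the table) was added as pseudocount. Of 8740 probe sets besides 59 controls, those whose average log2 intensity reached percentile 30 were tested, 6118 in all. One model with 3 group means was fitted to the 6 arrays with limma 3.58.1 in R 4.3.3 (moderated variances with an intensity trend, two-sided, Benjamini-Hochberg over the 6118, called under 0.05), after tests on simulated data. The smallest p of an exact permutation test with 2 arrays a group is 0.33, so none was run.

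Per the chip identifiers in the labels, P0 and P4 arrays of the same replicate number share a batch, so the number pairs them. Their deviations from group means correlated at 0.27 across probe sets. Fits of P4 against P0 with this block used only the P0 and P4 arrays. Where such a fit changes a P4 against P0 call of the 8 genes or the listed pathway genes, its value is given. Symbols came from the array annotation, of which 7018 probe sets had 1, 308 several and 1473 none, and were checked by gene number against a RefSeq table (6994 matched). Where an array of the dimmer group read under the background level of 20, which was set with the data in view, it was set to it and the fold written as at least N-fold. All members were named, and the nearest genes by the stated rule. Listed pathway genes that passed were named, and other pathway and marker genes were chosen after their values were seen. The members, lists and tests were chosen with earlier results of these data known. Alternatives were pseudocounts, filters, quantile normalization, no variance trend, fewer arrays and blocks.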

Additional observations from a re-analysis of the deposited data

How the results depend on the processing

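With 2 arrays a group, single arrays carried much of the result: leaving out each in turn, the number of probe sets called ran from 15 to 50 at P4 against P0 (66 with all arrays), 84 to 356 in culture against P0 (332) and 78 to 195 in culture against P4 (170). The 9 tested probe sets of the 8 genes gave 2 to 5 calls (4 with all arrays), 0 to 2 (2) and 1 to 5 (5). At P4 against P0 the total became 23 with no filter, 29 with no variance trend, 23 with only the groups compared, 314 with the replicate block and 335 with the chip batch as a random block. Under the stricter filter, the 50th percentile, 4 of the 9 were left out by construction, and the calls became 2, 1 and 3. Of all 4370 probe sets then tested, 55, 265 and 128 were called. With the replicate block, cultured arrays share only a number and no batch with the others. There were then 566 calls of 6118 in culture against P0, 4 of them among the 9. In culture against P4 there were 165 calls, 3 of them among the 9. The fit of culture against P0 had 1 residual degree of freedom, against 673 borrowed from all probe sets. Its counts are therefore not comparable with those of the main fit. Of the log2 changes, 8 values turned in sign, all of differences that did not pass. Nr5a1 at P4 against P0 became 0.037 with quantile normalization and ran from -0.25 to 0.24 without each array. Cyp19a1 in culture against P0 ran from -0.013 to 0.83, and Star in culture against P4 from -0.46 to 0.68 (AB001349_at) and -0.88 to 0.14 (AB006007_s_at). The remaining alternatives changed no direction of the 9. Cyp17a1 could not be tested without P4 replicate 1, when its mean fell under the filter. The cause of the other changes was not tested.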

Other observations

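Kap, named for a kidney protein under androgen control in rodents and listed here only as a kidney marker, read 66.4 and 103.3 in cultured ovaries, against 1.6 and 1.4 at P4 and 1.6 and 0.9 at P0. It was chosen for mention after its values were seen. Its mean fell under the filter, and with no filter it was at least 4.14-fold higher in culture than in either other group (limma adjusted p = 0.000914 against P4 and 0.000834 against P0).

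Inhbb, the inhibin beta B subunit of granulosa cells, was likewise under the filter and chosen after its values were seen. It read 4.5 and 3.7 in cultured ovaries, against 35.3 and 44.7 at P4 and 4.9 and 6.6 at P0, highest at P4 as Cyp19a1 was. With no filter it was at least 1.99-fold higher at P4 than in each other group (limma adjusted p = 0.0376 against P0 and 0.00723 against culture). Kitlg, from the same granulosa list and also under the filter, went another way and was highest at P0. It read 4.4 and 4.9 in cultured ovaries, 9.1 and 18.8 at P4, and 19.7 and 24.2 at P0. Only P0 replicate 2 was above the background level, and with no filter Kitlg passed in no comparison.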
